A study of Homo sapiens with 3 samples.

Results

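RNA of HSC-3 cells that carried a short hairpin RNA (shRNA) against DKK3 was compared with RNA of the parental HSC-3 cells, on 1 microarray each. HSC-3 was derived from a squamous cell carcinoma of the human tongue, and all cells were kept in DMEM with 10% fetal bovine serum. The parental cells carried no vector, per the labels. The shDKK3 cells had received a lentiviral vector with GFP and the DKK3 shRNA, made in HEK293 cells, and were grown with puromycin. A further array held RNA of shScr cells, which had received a GFP lentiviral vector with an ineffective shRNA and grew with puromycin too. The parental cells thus lacked the virus, GFP and puromycin, and in the comparison of shDKK3 with parental these cannot be told apart from the DKK3 shRNA, so the shScr value is given beside most genes. The sample description writes of DKK3 transfection, while the title and the shRNA label give shDKK3, and the labels do not say whether the line is a clone or a pool. The comparison uses 2 of the 3 arrays and covers 14964 genes, chosen as those with a symbol whose probe lay above the blank spots on the brighter array, out of 17614 genes with a usable probe.

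Levels are the authors' deposited intensities, on a linear scale where the median probe of each array is 25. Differences are log2 differences of the spot medians after background correction and quantile normalisation, shDKK3 minus parental unless stated. The background correction adds an offset, which shrinks the differences of dim genes: SPRR1B was 19.5-fold higher in the deposited values and 7.88-fold higher after normalisation. Bright genes depart from the deposited ratio too: LGALS1 was 2.80-fold higher in the deposited values and 1.99-fold after normalisation. HSPD1 was 1.74-fold lower in the deposited values and 2.11-fold after normalisation. Unless stated, 2-fold refers to the normalised difference, so it can differ from the ratio of the printed levels. With 1 array a condition there were no replicates, no test was possible, and each difference is between these arrays only. The measures of error at hand come from within the arrays: 24 copies each of a pair of control spots had an SD between 0.08 and 0.19 (log2), and the difference measured by 1 probe had a robust SD of 0.14, estimated from probes of the same gene. Of 24460 gene probes, 78.5% (parental), 80.1% (shScr) and 81.3% (shDKK3) lay above the blank spots. All 10 squamous epithelial markers looked up were detected on each array. Their summed deposited level was 20812 in parental, 21182 in shScr and 55440.2 in shDKK3 cells, and the markers did not move together. KRT5, KRT14, KRT17, SFN and PKP1 were above parental by 1.45, 1.85, 2.13, 0.31 and 0.49 in normalised difference, ITGA6 and LAMB3 stood at -0.99 and -0.61, and TP63, DSC3 and DSG3 lay between -0.17 and 0.10. Markers of other cells summed to far less: between 114 and 148 over 9 fibroblast genes, 47.4 and 68.0 over 5 endothelial genes, 140 and 286 over 6 leukocyte genes and 69.2 and 86.5 over 7 genes of HEK293 cells, with PTPRC and LUM at no deposited value on any array.

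DKK3 encodes a secreted glycoprotein of the dickkopf family, whose member DKK1 blocks Wnt signalling at the LRP co-receptors. Stratified squamous epithelium divides in a basal layer that holds KRT5 and KRT14 and is bound to the basement membrane by integrins. Cells that leave it make other keratins, S100 proteins and small proline-rich proteins of the cornified envelope, and injured or hyperproliferative epithelium makes KRT6, KRT16 and KRT17. DKK3 gave 309 in parental, 226 in shScr and 170.2 in shDKK3 cells. It was lowest in shDKK3, and shScr lay below parental. The normalised difference to parental was -0.71, or 1.64-fold, at percentile 6.67 of all compared genes, and shScr differed from parental by -0.32. DKK3 was measured by 1 probe, and after subtraction of the deposited background column its difference was 0.23, in the opposite direction.

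At least 2-fold higher on the shDKK3 array were 129 genes, 0.862% of those compared, and at least 2-fold lower were 453 genes, 3.03%. Counts of list members below are to be read against these shares. The median difference over all compared genes was 0.03, and the 5th and 95th percentiles were -0.81 and 0.66. Lower genes made up 77.8% of the genes past 2-fold, a share that was 91.8% with scaling to the median, 66.0% with scaling to the 75th percentile and 54.5% after subtraction of the deposited background column. All 129 higher genes and 412 of the 453 lower ones were also past 2-fold in the authors' deposited values of the same probe, where 4.52% of the genes compared there were past 2-fold higher and 10.9% lower. All 582 (3.89% of those compared) kept their direction there. Near the threshold lay 57 higher genes between 1.0 and 1.1 with 91 just under it, between 0.9 and 1.0, and 143 lower genes on either side of it. Genes past 2-fold were bright ones, with 117 of the higher and 390 of the lower in the brightest tertile of 4988 genes and 0 of either in the dimmest. The offset shrinks the differences of dim genes, so this split follows in part from the processing. The shares over all genes include these dim genes. Counts in lists of bright genes are therefore also to be read against those 117 and 390 of 4988. One alternative moved most of the values described: the files hold a further column, named as background, that follows its own spot, and subtracting it left 47 of 118 described genes past 2-fold in the same direction, 61 in that direction under 2-fold and 10 in the opposite one. The other 12 settings left between 106 and 119. Of 19 described lists at least 0.2 from all genes, 2 stayed so with that column and between 16 and 19 in the other settings. The shScr array, against the same parental array, had 58 genes (0.391%) higher and 146 genes (0.983%) lower.

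**Figure D1:**
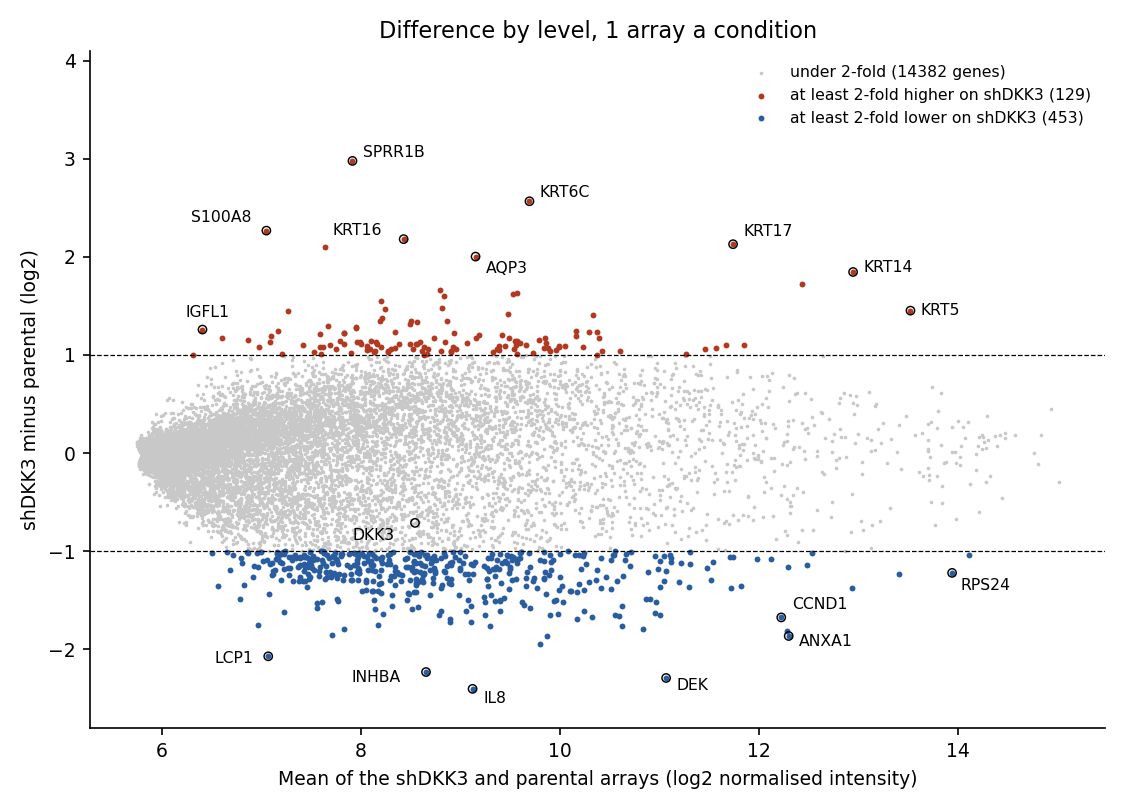
The horizontal axis is the mean of the normalised log2 intensity of the shDKK3 and parental arrays, and the vertical axis their log2 difference, with 1 point for each of 14964 genes. Dashed lines mark 2-fold, with 129 genes above the upper and 453 below the lower line, and circles mark genes named in the text, from SPRR1B at 2.98 to IL8 (CXCL8) at -2.40.

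The largest positive differences were those of squamous epithelial genes. SPRR1B, a precursor protein of the cornified envelope, gave 25.2 in parental, 43.3 in shScr and 491 in shDKK3 cells, a difference of 2.98. S100A8, a calcium-binding protein of inflamed and stratifying epithelium, gave 6.08 in parental, 5.0 in shScr and 169 in shDKK3 cells. S100A9, with which it forms a heterodimer, gave 28.6 in parental, 19.9 in shScr and 110.1 in shDKK3 cells. For all 3 genes the shDKK3 array stood alone at the top, and the parental and shScr arrays lay far below. The differences of S100A8 and S100A9 were 2.27 and 1.19. Only these 2 of 13 compared S100 genes were past 2-fold, but all 13 lay above 0, with a median of 0.45 against 0.03 over all genes and 0.01 for the list on the shScr array. Beyond SPRR1B, 0 of the other genes of the cornified envelope list reached 2-fold in either direction, out of 27 compared, with a median of 0.30. SPRR1B, S100A8 and S100A9 stood at 0.17, 0.08 and 0.07 with the background column subtracted, all close to 0.

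Several keratins of stressed epithelium were at least 2-fold higher. KRT16 gave 82.3 in parental, 95.1 in shScr and 537 in shDKK3 cells, and KRT6B gave 33.5 in parental, 28.5 in shScr and 265 in shDKK3 cells. In both, the parental and shScr arrays lay close together, and the differences were 2.18 and 2.10. KRT6C gave 215 in parental, 481 in shScr and 1689 in shDKK3 cells, KRT6A gave 2146 in parental, 3632 in shScr and 9954 in shDKK3 cells and KRT17 gave 1122 in parental, 1782 in shScr and 7010.2 in shDKK3 cells. These 3 also stood higher in shScr than in parental cells, by 1.21, 1.15 and 0.92, with shDKK3 above both, at 2.57, 1.72 and 2.13 to parental. In all, 6 of 12 compared keratins of stressed and suprabasal epithelium were at least 2-fold higher and 0 lower, with a median of 0.94. The sixth was KRT1 of the spinous layer, which was not above the blanks on the parental array. KRT6B and KRT1 stood at 0.47 and 0.12 with the background column subtracted, and the list then lay 0.11 above all genes, where it had lain 0.91 above them.

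Several basal keratins were also at least 2-fold higher. KRT5 gave 4989 in parental, 6273 in shScr and 18500.3 in shDKK3 cells and KRT14 gave 2937 in parental, 3779 in shScr and 14815 in shDKK3 cells, with differences of 1.45 and 1.85. KRT15, a basal keratin, gave 277 in parental, 256 in shScr and 1067 in shDKK3 cells, and KRT19, a keratin of simple and basal epithelium, gave 1187 in parental, 709 in shScr and 3089 in shDKK3 cells. The shScr array was close to parental for KRT15 and below it for KRT19. Their differences were 1.63 and 1.01, and the second probe of KRT15 gave 2.45. KRT19 was 0.89 with the background column subtracted, and KRT5, KRT14 and KRT15 stayed past 2-fold at 1.46, 3.63 and 2.04. The list of basal and simple keratins thus had 4 of 7 members higher and 0 lower, with a median of 1.01. Its median between shScr and parental was 0.06, but its members were spread. On the shScr array KRT5 and KRT14 stood at 0.77 and 0.78 to parental, KRT15 at -0.02 and KRT19 at -0.57. The probes of KRT6A, KRT6B and KRT6C, and of KRT14, KRT16 and KRT17, measure messages of similar sequence and may not be separate measurements. In RNA of whole cultures, more cells that make a keratin and more of its RNA per cell cannot be told apart.

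Runs of 10 neighbouring compared genes were ranked by how many were past 2-fold. Genes of the same family lie side by side in the top runs, so these mostly restate the genes above and are no separate support. Among 10 neighbouring compared genes of chromosome 17, KRT15, KRT19, KRT14, KRT16, KRT17 and the hormone gene GAST were past 2-fold, 6 in all, and among 10 of chromosome 12, KRT6B, KRT6C, KRT6A, KRT5 and KRT1 were. SPRR1B, S100A9 and S100A8 stood within 10 genes of chromosome 1. GAST, the gastrin gene, gave 30.5 in parental, 30.5 in shScr and 143 in shDKK3 cells, with a difference of 1.45, or 0.92 with the background column subtracted. No run of 10 genes had more than 4 lower members.

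Other genes of the squamous surface split. AQP3, the water and glycerol channel of keratinocytes, gave 173 in parental, 78.7 in shScr and 882 in shDKK3 cells. It was lowest in shScr and highest in shDKK3, with differences of 2.002 and, by its second probe, 1.46. SLPI, a secreted inhibitor of leukocyte proteases, gave 89.8 in parental, 89.0 in shScr and 340.1 in shDKK3 cells, and the kallikrein KLK10 gave 79.5 in parental, 145 in shScr and 244 in shDKK3 cells, with differences of 1.55 and 1.29. SERPINB2, the intracellular plasminogen activator inhibitor, was lower instead, with 1889.7 in parental, 1423 in shScr and 695 in shDKK3 cells. The cystatin CST6 was lower on both vector arrays, with 969.9 in parental, 277 in shScr and 469.6 in shDKK3 cells. The kallikrein and antiprotease list had 2 of 19 members higher and 2 lower, with a median of 0.12. EPCAM, an epithelial adhesion molecule, gave 1927 in parental, 1671 in shScr and 648 in shDKK3 cells, a difference of -1.66. It and CLDN1, a claudin of tight junctions at -1.03, were the 2 of 27 junction genes past 2-fold (7.41%). CLDN1 was as low on the shScr array (-1.12), and its second probe, not above the blanks on its brighter array, gave -0.02 for shDKK3. AQP3, KLK10, EPCAM and CLDN1 were under 2-fold with the background column subtracted, at 0.76, 0.60, -0.42 and -0.36.

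Of 28 transcription factors of the squamous lineage, 0 were past 2-fold, and the largest differences were those of SOX15 (0.68) and KLF4 (-0.64). KLF4, which drives barrier formation, gave 37.2 in parental, 25.3 in shScr and 9.80 in shDKK3 cells. The lineage factor TP63 gave 18.1 in parental, 24.8 in shScr and 21.5 in shDKK3 cells, a difference of 0.10, so it differed little between the arrays.

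**Figure D2:**
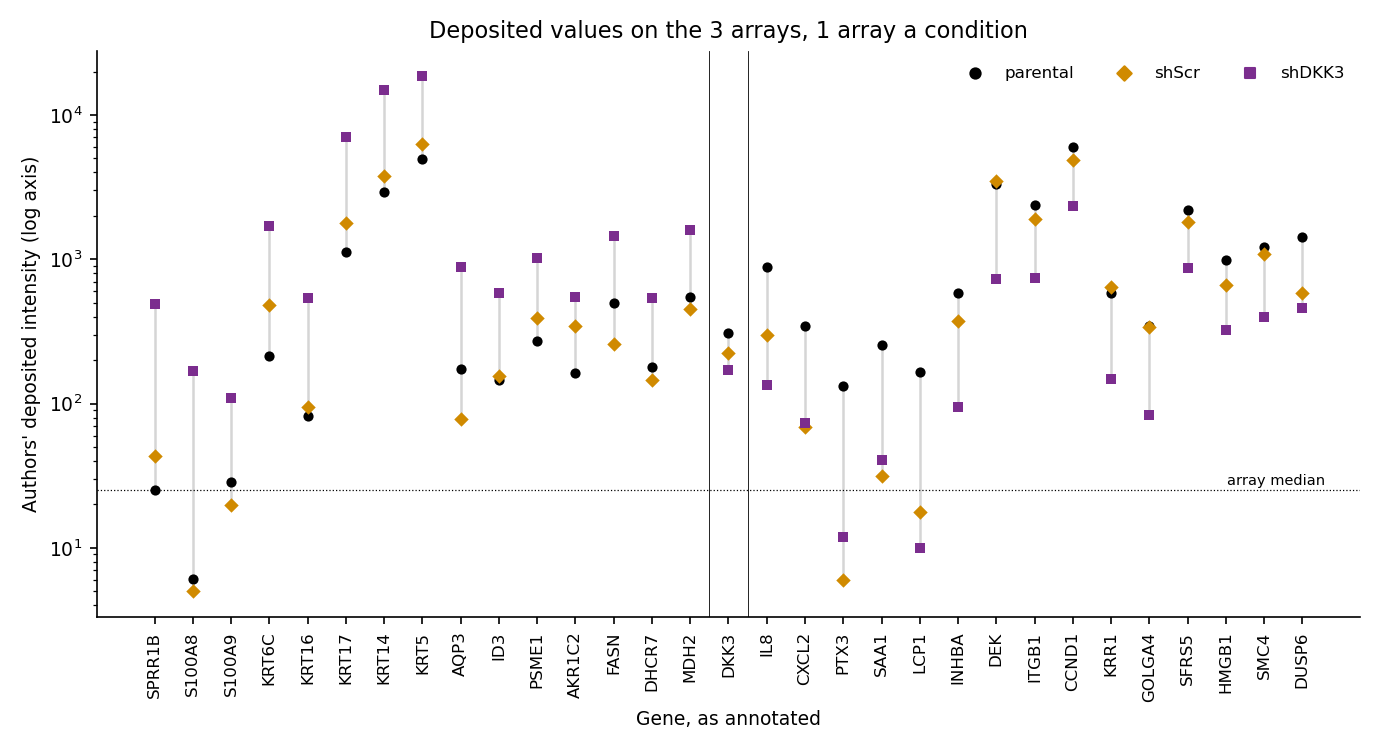
The vertical axis is the authors' deposited intensity on a log axis, with circles for the parental, diamonds for the shScr and squares for the shDKK3 array, 1 array each, and genes along the horizontal axis as annotated (IL8 is CXCL8 and SFRS5 is SRSF5). The genes on the left have their highest value on the shDKK3 array, DKK3 stands between the lines, and the genes on the right have their highest value on the parental or shScr array. For CXCL2, PTX3, SAA1 and LCP1 the shScr value lies near the shDKK3 value, and for DEK, KRR1 and GOLGA4 near the parental value.

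The lowest difference of all was that of the neutrophil chemokine CXCL8, annotated as IL8. It gave 879.6 in parental, 299 in shScr and 135 in shDKK3 cells, so both vector arrays were below parental, with differences of -2.40 for shDKK3 and -1.37 for shScr. CXCL2 gave 346 in parental, 68.9 in shScr and 72.8 in shDKK3 cells and CXCL1 gave 337 in parental, 166 in shScr and 107 in shDKK3 cells, both chemokines for neutrophils. CXCL2 was about as low on the shScr and shDKK3 arrays, at -1.79 and -1.76, and CXCL1 was lowest on shDKK3 at -1.35. These were the 3 of 15 chemokines past 2-fold, with 0 higher and a list median of -0.04. Of the IL1 and IL6 families, IL1B gave 1663 in parental, 593 in shScr and 730.3 in shDKK3 cells and the growth factor CSF2 gave 649 in parental, 177 in shScr and 249.6 in shDKK3 cells. Both were lowest on the shScr array, at -1.32 and -1.63 to parental, against -1.30 and -1.29 for shDKK3. IL1A, an alarmin of keratinocytes, gave 452 in parental, 344 in shScr and 141 in shDKK3 cells, and the shared receptor chain IL6ST gave 81.2 in parental, 119.6 in shScr and 17.8 in shDKK3 cells. For this pair the shDKK3 array alone was low, at -1.44 and -1.07. The list had 4 of 23 members lower (17.4%) and 0 higher. CXCL2, CXCL1, CSF2, IL1A and IL6ST stood at -0.45, 0.09, -0.81, -0.76 and -0.33 with the background column subtracted, and IL8 stayed past 2-fold.

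Secreted defence proteins followed. SAA1, an acute-phase apolipoprotein, gave 256 in parental, 31.5 in shScr and 40.6 in shDKK3 cells and its near-identical copy SAA2 gave 156 in parental, 22.3 in shScr and 23.8 in shDKK3 cells, which the probes may not separate. PTX3, a soluble pattern recognition protein, gave 132 in parental, 6.0 in shScr and 11.9 in shDKK3 cells. All 3 were low on both vector arrays, with differences to parental of -1.85, -1.62 and -1.75 for shDKK3 and -2.002, -1.60 and -1.89 for shScr. They were the 3 of 15 acute-phase and complement genes past 2-fold, 0 being higher, and the list median was -0.36, against -0.27 for shScr. Among 23 genes of NF-kB and the inhibitor of apoptosis family, 3 were lower and 0 higher. BIRC3, a target and regulator of NF-kB, gave 98.8 in parental, 60.9 in shScr and 10.2 in shDKK3 cells, lowest on the shDKK3 array (-1.49). The interferon-stimulated list had 2 of 31 members higher (6.45%) and 1 lower (3.23%, near the 3.03% of all genes). IFI6 and UBE2L6 were higher by 1.07 and 1.03, and the RNA sensor RIGI, annotated as DDX58, was lower (-1.44, second probe -1.08). SAA1, PTX3 and BIRC3 stood at -0.79, 0.09 and -0.19 with the background column subtracted, and IFI6, UBE2L6 and DDX58 at 0.81, 0.26 and -0.81.

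The promoters of CXCL2 and CXCL1 are shown because both chemokines were low and share a match to GGGA, any 4 bases and CC, letters that NF-kB sites often hold. The stretches are the 150 bases before the RefSeq start site on the gene's strand (GRCh38.p14), chr4:74099196-74099345 on the minus strand for CXCL2 and chr4:73869243-73869392 on the plus strand for CXCL1, with the matches in capitals.
CXCL2: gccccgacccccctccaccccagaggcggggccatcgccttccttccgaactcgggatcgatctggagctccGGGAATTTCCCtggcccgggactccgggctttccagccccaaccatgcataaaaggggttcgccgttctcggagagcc
CXCL1: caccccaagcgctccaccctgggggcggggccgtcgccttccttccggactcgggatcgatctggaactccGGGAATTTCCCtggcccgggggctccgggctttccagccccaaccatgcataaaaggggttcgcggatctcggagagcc
In a window of 250 bases before to 50 after the start site, read on both strands, 9 of 14 chemokine promoters in the table held these letters (64.3%), as did 13 of 20 promoters of the NF-kB list (65.0%), against 25.1% of all 27305 promoters and 30.3% of the 12027 of compared genes. The lists were picked by function, so the share describes the lists and not what was low: of the lower genes as a whole, 31.1% of 383 promoters held it, and of the higher genes 32.7% of 101, both near the share in the compared genes. Other lists varied, with 57.9% for epithelial junctions, 57.1% for p53 targets and 5.71% for replication-dependent histones. A match is not a binding site.

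Growth factor genes were mostly within 2-fold, with a few far outside it. INHBA, the subunit of activin A, gave 589 in parental, 372 in shScr and 95.1 in shDKK3 cells, with differences of -2.23 for shDKK3 and -0.52 for shScr. ID3, an inhibitor of helix-loop-helix factors and a common target of BMP signalling, gave 147 in parental, 156 in shScr and 580.2 in shDKK3 cells, high on the shDKK3 array only (1.66). They were the only 2 of 28 genes of TGF-beta, activin and BMP signalling past 2-fold, 3.57% each way. HBEGF, a ligand of the EGF receptor, gave 224 in parental, 72.7 in shScr and 63.8 in shDKK3 cells, low on both vector arrays (-1.30 and -1.16), and was the 1 of 12 EGFR family genes past 2-fold. DUSP6, a phosphatase that limits ERK, gave 1435 in parental, 583 in shScr and 458 in shDKK3 cells, also low on both (-1.69 and -1.13). It was the 1 of 30 ERK feedback and immediate early genes past 2-fold (3.33%, near the 3.03% of all genes), and the list median was 0.03. INHBA stood at -0.03, ID3 at 0.51, HBEGF at -0.97 and DUSP6 at 0.93 with the background column subtracted, so INHBA hardly differed and DUSP6 turned.

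Among 42 Wnt genes, 1 was higher (2.38%) and 2 were lower (4.76%), with a list median of 0.02. DKK1, the Wnt antagonist related to DKK3, gave 3240.0 in parental, 2748 in shScr and 1552 in shDKK3 cells, low on the shDKK3 array only, at -1.30 and 0.04 for shScr. The R-spondin receptor LGR4 gave 333 in parental, 242 in shScr and 117 in shDKK3 cells, at -1.23 and -0.65 by its second probe. The ligand WNT3A was the higher one, with 87.3 in parental, 92.4 in shScr and 232 in shDKK3 cells, and stood at 1.14, or 0.49 with the background column subtracted.

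Integrin genes, which bind cells to the matrix, lay mostly below 0. ITGB1, the beta chain common to most integrins of epithelium, gave 2397 in parental, 1918 in shScr and 742 in shDKK3 cells, and ITGA2, its partner in the collagen receptor, gave 388 in parental, 449 in shScr and 112 in shDKK3 cells. In both the shDKK3 array stood apart from the others, with -1.80 and -1.498 to parental against -0.04 and 0.32 for shScr. They were the 2 of 13 integrins past 2-fold, and 2 of the 13 lay above 0. DST, a plakin of hemidesmosomes, was the 1 of 16 laminin and hemidesmosome genes past 2-fold (6.25%), at -1.30, but its second probe gave -0.0047. F3, the tissue factor of coagulation, gave 8608 in parental, 6645 in shScr and 4269.5 in shDKK3 cells and stood at -1.37, although at 4.49 with the background column subtracted. The actin regulators CAPZA1, ROCK1 and RDX were the 3 of 39 cytoskeleton genes past 2-fold (7.69%). They stood at -1.37, -1.14 and -1.08, with second probes of -1.22 and -0.82 for the first pair. In the brightest tertile of all genes 390 of 4988 were at least 2-fold lower. ITGA2 and DST were -0.71 and -0.29 with the background column subtracted, and CAPZA1, ROCK1 and RDX -0.80, -0.97 and -0.81. LGALS1, a galectin of mesenchymal cells, gave 3174 in parental, 539 in shScr and 8876 in shDKK3 cells, and the receptor kinase AXL gave 2086 in parental, 432 in shScr and 1261 in shDKK3 cells. Both were lowest on the shScr array. After normalisation both were within 2-fold between shDKK3 and parental (0.99 and -0.92). The same held for all 18 mesenchymal genes and all 15 matrix metalloproteinases and their inhibitors. In the deposited values LGALS1 was 2.80-fold, the inhibitor TIMP3 2.13-fold and the metalloproteinase MMP28 2.10-fold higher on shDKK3.

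YAP and TAZ are coactivators that respond to adhesion and act through TEAD factors. Their target CCN2, annotated as CTGF, gave 181 in parental, 159.9 in shScr and 49.6 in shDKK3 cells. Another target, CCN1, annotated as CYR61, gave 1989 in parental, 1521 in shScr and 1098 in shDKK3 cells. In each the shDKK3 array was lowest and shScr near parental, with differences of -1.25 and -1.05 against -0.06 and -0.11. With F3 and CRIM1 (-1.07) they were the 4 of 28 list members past 2-fold, all lower, and the list median was -0.11. CCN1 and CRIM1 were -0.84 and -0.55 with the background column subtracted. The promoter of CCN2, chr6:131951373-131951522 on the minus strand, is shown because it holds a pair of matches to the TEAD letters GGAATG, in capitals.
CCN2: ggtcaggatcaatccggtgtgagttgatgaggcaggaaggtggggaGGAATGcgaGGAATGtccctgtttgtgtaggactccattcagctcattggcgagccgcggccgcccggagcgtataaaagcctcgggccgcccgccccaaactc
The letters stood in 8 of 21 promoters of the list (38.1%), in 14.05% of all and in 11.3% of those of compared genes. They stood in 13.3% of promoters of the lower genes, 11.9% of the higher genes and 34.6% of the cornified envelope list.

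Mitotic genes had the most lower members of the 51 lists. Of 47 compared genes of G2 and mitosis, 14 were at least 2-fold lower and 0 higher (29.8%, against 3.03% of all genes), with a median of -0.77. In the brightest tertile of all genes 390 of 4988 were at least 2-fold lower, and the median there was 0.11. The list median was -0.72 for shScr against parental, so both vector arrays lay below the parental one. CENPE, the kinetochore motor, gave 272 in parental, 78.6 in shScr and 48.4 in shDKK3 cells, NUF2 of the outer kinetochore gave 289.8 in parental, 145 in shScr and 82.8 in shDKK3 cells and the spindle motor KIF11 gave 481 in parental, 254 in shScr and 159 in shDKK3 cells. All 3 had shScr between the others, with differences of -1.79, -1.401 and -1.38 for shDKK3 and -1.34, -0.78 and -0.77 for shScr. SMC4, a condensin subunit, gave 1226 in parental, 1091 in shScr and 401 in shDKK3 cells, low on the shDKK3 array only (-1.64 and 0.02). The gene annotated CDC2, an older symbol of a mitotic kinase, was not matched into the list and is not in its counts. It gave 2033 in parental, 1348 in shScr and 636 in shDKK3 cells. Its difference was -1.76. NUF2, KIF11 and CDC2 stood at -0.08, -0.90 and 0.17 with the background column subtracted. The list median, relative to all genes, was -0.80 and then -0.14.

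Promoters of KIF11, chr10:92592980-92593129, and SMC4, chr3:160399500-160399649, both on the plus strand, are shown for the letters TTTGAA of the cell cycle homology region, which here stand in the reverse sense. The match is in capitals.
KIF11: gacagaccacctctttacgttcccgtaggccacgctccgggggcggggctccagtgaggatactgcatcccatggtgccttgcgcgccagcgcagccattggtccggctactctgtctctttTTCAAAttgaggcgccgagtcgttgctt
SMC4: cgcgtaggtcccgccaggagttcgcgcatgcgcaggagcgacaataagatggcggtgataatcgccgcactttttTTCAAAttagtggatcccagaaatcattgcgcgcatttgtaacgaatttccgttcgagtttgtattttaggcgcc
TTTGAA stood in 29 of 42 promoters of the mitotic list (69.0%) and in 15.4% of all promoters. Of promoters of the compared genes 10.8% held it, of those of the lower genes 15.9% and of the higher genes 3.96%.

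Genes of the G1 phase differed less as a group than the mitotic genes. CCND1, the cyclin of G1 entry, gave 6034 in parental, 4877 in shScr and 2342 in shDKK3 cells, low on the shDKK3 array (-1.67) and near parental on shScr (0.12). CDKN3, a phosphatase of cyclin-dependent kinases, gave 1528 in parental, 398 in shScr and 682 in shDKK3 cells, lowest on shScr. CCND1, CDKN3 (-1.26) and CCND2 (-1.15) were the 3 of 17 genes of the G1 kinase list past 2-fold. All 3 were lower, 17.6% of the list against 3.03% of all genes, and the list median was -0.07. CCND2 gave 1738 in parental, 638 in shScr and 871 in shDKK3 cells, lowest on shScr (-1.26 to parental). Of 43 genes of DNA replication, PRIM1 alone was past 2-fold (-1.16), 2.33% against 3.03% lower of all genes, and the median was -0.06. Of 26 replication-dependent histones 24 lay above 0 with a median of 0.29, and H1-1, annotated as HIST1H1A, was past 2-fold (1.08). CCND2, PRIM1 and HIST1H1A were 0.16, -0.34 and 0.23 with the background column subtracted.

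Nonhistone chromatin proteins lay mostly below 0, all but 4 of 25. DEK, a chromatin-bound oncoprotein, gave 3353 in parental, 3506 in shScr and 729 in shDKK3 cells, with a difference of -2.29. Its shScr level was above parental (0.45). HMGB1, an architectural chromatin protein and alarmin, gave 985 in parental, 668 in shScr and 323 in shDKK3 cells, and CBX3, a heterochromatin protein, gave 2381.4 in parental, 2099.9 in shScr and 922 in shDKK3 cells. Both had shDKK3 lowest, and their second probes gave nearly the same difference: -1.57 and -1.57 for HMGB1, -1.52 and -1.478 for CBX3. HMGB2 stood at -1.38, against -0.84 for shScr. In all, 10 of 25 genes of this list were lower and 0 higher, with a median of -0.88, the lowest of the 51 lists, against -0.07 for shScr. HMGB1 and HMGB2 were -0.83 and 0.01 with the background column subtracted, and DEK and CBX3 stayed past 2-fold. Relative to all genes the list median was -0.91 and then -0.31.

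Genes of splicing and ribosome assembly also lay mostly below 0. Of 36 hnRNP and SR splicing factors, 9 were at least 2-fold lower and 0 higher, with a median of -0.47 against 0.05 for shScr. SRSF5, annotated as SFRS5, gave 2200.0 in parental, 1802 in shScr and 867 in shDKK3 cells, and HNRNPU, which organises nuclear RNA, gave 2621 in parental, 2376 in shScr and 1190.2 in shDKK3 cells. HNRNPR gave 728 in parental, 712 in shScr and 276 in shDKK3 cells. In all 3 the shScr array was close to parental, and the shDKK3 differences were -1.484, -1.32 and -1.32. HNRNPDL, annotated as HNRPDL, had -1.395 by its brightest probe and -0.19 by the other. Of 47 genes of ribosome biogenesis, 8 were lower and 0 higher, with a median of -0.34 against 0.19 for shScr. KRR1, a factor of the small subunit, gave 587 in parental, 648 in shScr and 149 in shDKK3 cells, and the nucleolar helicase DDX21 gave 1142 in parental, 1346 in shScr and 462 in shDKK3 cells. For both the shScr array was highest, and the shDKK3 differences were -1.72 and -1.36. NOL11 stood at -1.22. Ribosomal proteins themselves lay mostly above 0, 37 of 57, with a median of 0.12, near the 0.11 of the brightest tertile of all genes. RPL7 (-1.23) and RPS24 (-1.22) were the 2 past 2-fold, 3.51% of the list, near the 3.03% lower of all genes. In the brightest tertile of all genes 390 of 4988 were lower. In the deposited values RPL7 and RPS24 were 1.65-fold and 1.61-fold lower, so under 2-fold. Both have many pseudogenes that a probe could also bind. HNRPDL, KRR1, DDX21 and RPL7 were -0.14, -0.91, -0.50 and -0.82 with the background column subtracted. Relative to all genes, the splicing list went from -0.50 to -0.08 and the ribosome biogenesis list from -0.37 to 0.08 in that setting.

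**Figure D3:**
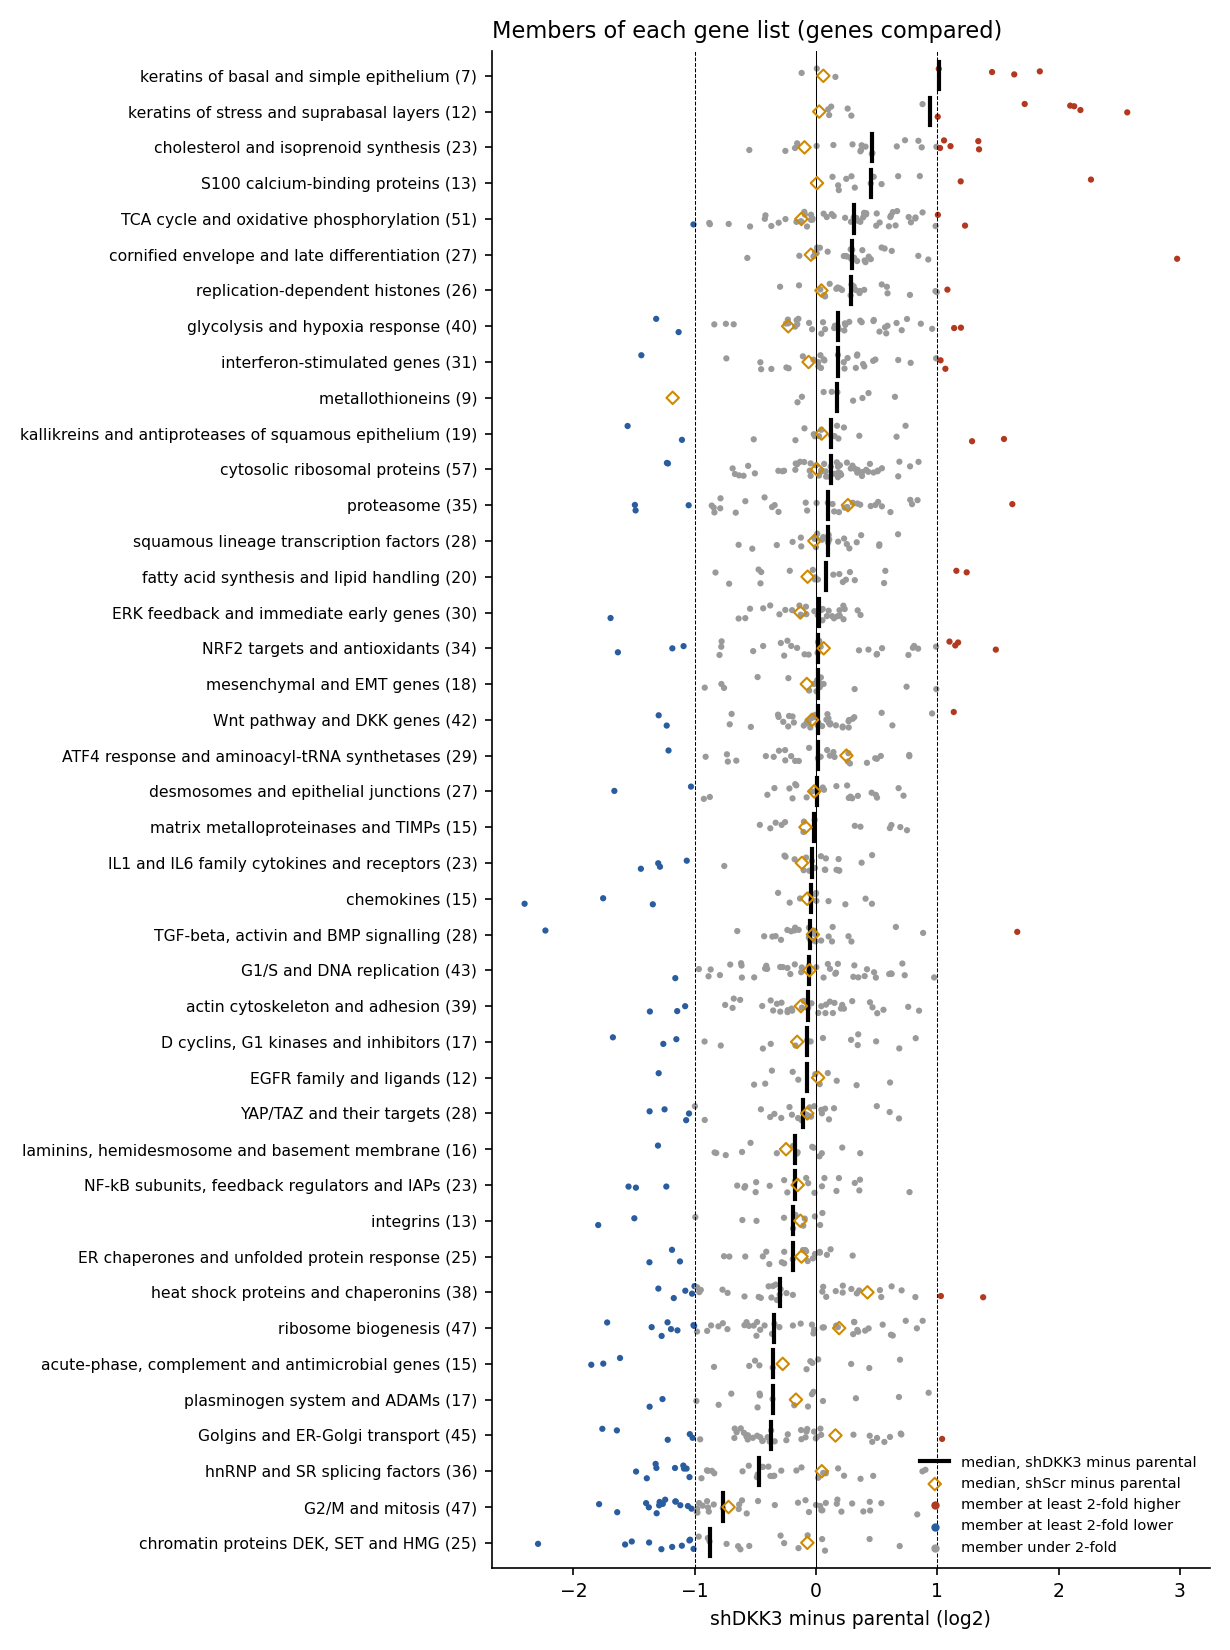
The horizontal axis is the log2 difference of shDKK3 minus parental, with 1 point for each compared member of the 42 gene lists described (number of genes in brackets), coloured past 2-fold, which dashed lines mark. Black bars are list medians, from 1.01 for basal and simple keratins to -0.88 for DEK, SET and HMG proteins, and open diamonds are the medians of shScr minus parental, which share the parental array.

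Protein folding and turnover genes went both ways. Of 38 heat shock proteins and chaperonins 5 were lower and 2 higher, with a median of -0.30 against 0.42 for shScr. HSPD1, the mitochondrial chaperonin, gave 4183 in parental, 5715 in shScr and 2406 in shDKK3 cells and the chaperonin subunit CCT6A gave 3038 in parental, 4393 in shScr and 1580.0 in shDKK3 cells. The shScr array was highest and the shDKK3 array lowest for both (-1.08 and -1.17 to parental). HSPA2 and HSPB1, a small heat shock protein of epithelium, were higher, by 1.38 and 1.03. A probe named for HSP90AA2P, annotated as HSP90AA2 and a near copy of HSP90AA1, gave 6539 in parental, 8728 in shScr and 2322 in shDKK3 cells. Of the ER chaperones HSP90B1 stood at -1.37, and 3 of 25 genes of the list were lower, 0 higher. Proteasome genes had 3 of 35 lower and 1 higher. PSMC6 of the regulatory particle gave 773 in parental, 1188 in shScr and 256 in shDKK3 cells and PSMA3 of the core gave 2274 in parental, 2204 in shScr and 885 in shDKK3 cells. The activator subunit PSME1, which interferon induces, gave 271 in parental, 392 in shScr and 1020.1 in shDKK3 cells. PSME1 was highest on shDKK3 (1.62), where PSMC6 and PSMA3 were lowest (-1.49 and -1.49). CCT6A, HSPA2 and HSP90B1 were -0.23, 0.19 and 0.10 with the background column subtracted, and the median of heat shock proteins was then that of all genes, at a distance of 0.0002.

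Transport between the ER and the Golgi had 5 of 45 genes lower and 1 higher, with a median of -0.37 against 0.16 for shScr. ERGIC2, a cargo receptor, gave 791 in parental, 724 in shScr and 208 in shDKK3 cells, with -1.76 and -2.06 by its probes. GOLGA4, a golgin that tethers vesicles, gave 346 in parental, 339 in shScr and 82.7 in shDKK3 cells, with -1.64 and -1.49. In both genes the shScr array lay at the parental level. TMED7 was lower (-1.22) and TMED4 higher (1.04), both of them p24 cargo receptors. Of 29 genes of the ATF4 response and the tRNA synthetases, EPRS1, annotated as EPRS, was the 1 past 2-fold (-1.22). That was 3.45% of the list, near the 3.03% lower of all genes. TMED7 and TMED4 were -0.79 and 0.75 with the background column subtracted, and the transport list went from -0.40 to -0.07 relative to all genes.

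Genes of cholesterol synthesis held several higher members. Of 23 genes of this list 5 were at least 2-fold higher and 0 lower (21.7%, against 0.862% of all genes), with a median of 0.46 against -0.10 for shScr. In the brightest tertile of all genes 117 of 4988 were at least 2-fold higher. DHCR7, an enzyme of the final steps, gave 179 in parental, 146 in shScr and 543 in shDKK3 cells, and FDPS, which makes farnesyl diphosphate, gave 1337 in parental, 934 in shScr and 3566 in shDKK3 cells. Both were highest on shDKK3 and lowest on shScr, with differences to parental of 1.34 and 1.06. INSIG1, a sterol sensor, stood at 1.11, with 0.30 by its second probe. MVK, mevalonate kinase, stood at 1.34. Of 20 fatty acid genes, the synthase FASN (1.24) and the desaturase SCD (1.16) were higher and 0 lower, with a list median of 0.08. FASN gave 501.3 in parental, 259 in shScr and 1454 in shDKK3 cells and SCD gave 19.2 in parental, 32.7 in shScr and 86.3 in shDKK3 cells. DHCR7, FDPS, INSIG1, MVK, FASN and SCD were all under 2-fold with the background column subtracted, at 0.95, 0.43, 0.55, -0.14, -0.28 and 0.48. Relative to all genes the cholesterol list went from 0.43 to 0.06.

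The promoters of DHCR7, chr11:71448394-71448543 on the minus strand, and FDPS, chr1:155308716-155308865 on the plus strand, are shown for their CCAAT boxes, on either strand in capitals, since sterol-regulated promoters often carry the box of the factor NF-Y beside a sterol element.
DHCR7: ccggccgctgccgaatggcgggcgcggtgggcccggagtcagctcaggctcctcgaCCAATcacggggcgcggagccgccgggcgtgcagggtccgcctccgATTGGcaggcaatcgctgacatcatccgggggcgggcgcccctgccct
FDPS: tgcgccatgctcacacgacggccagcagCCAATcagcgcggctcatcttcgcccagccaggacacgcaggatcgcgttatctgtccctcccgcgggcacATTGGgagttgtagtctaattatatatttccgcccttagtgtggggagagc
CCAAT stood in 15 of 20 promoters of the cholesterol list (75%), in 69.0% of those of the mitotic list, in 35.7% of all and in 36.6% of those of compared genes. Some other lists were as rich: 88.6% for replication-dependent histones, 87.5% for ER chaperones and 69.6% for DEK, SET and HMG proteins. Of the higher genes 43.6% held it and of the lower genes 38.4%. The sterol element TCAC, 1 free base and CCAC stood in 1 of the 20 and in 1.15% of all.

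Mitochondrial genes had a median of 0.31 over 51 genes of the TCA cycle and oxidative phosphorylation, against -0.12 for shScr, with 2 higher and 1 lower. MDH2, mitochondrial malate dehydrogenase, gave 549 in parental, 455 in shScr and 1589 in shDKK3 cells, a difference of 1.23. ATP5F1D, annotated as ATP5D and part of ATP synthase, stood at 1.005. Of 40 genes of glycolysis and hypoxia 2 were higher and 2 lower, with a median of 0.18 against -0.23 for shScr. DDIT4, an mTOR inhibitor that stress induces, gave 506 in parental, 381 in shScr and 1421 in shDKK3 cells, and NDRG1 gave 328 in parental, 63.3 in shScr and 863 in shDKK3 cells. For NDRG1 the shScr array was far below parental (-1.81) and the shDKK3 array above it (1.14). The oxidoreductase ERO1A, annotated as ERO1L, stood at -1.32 and -1.14 by its probes, and the lysyl hydroxylase PLOD2 at -1.13. MDH2, ATP5D, ERO1L and PLOD2 were 0.44, 0.77, -0.91 and -0.02 with the background column subtracted.

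Antioxidant genes were divided, with 4 of 34 NRF2 targets higher and 3 lower. AKR1C2, an aldo-keto reductase, gave 162 in parental, 347 in shScr and 551 in shDKK3 cells, and AKR1B10 of the same family gave 9.42 in parental, 8.0 in shScr and 65.5 in shDKK3 cells. AKR1C2 was higher on both vector arrays, AKR1B10 on shDKK3 only. The second probe of AKR1C2, not above the blanks on its brighter array, gave -0.02. AKR1C2 was 2.79-fold and AKR1B10 2.25-fold higher on shDKK3, and the glutathione transferase GSTP1 stood at 1.101 and 1.05 by its probes. NRF2 itself, NFE2L2, gave 653 in parental, 658 in shScr and 274 in shDKK3 cells and the thioredoxin reductase TXNRD1 gave 2443 in parental, 1451 in shScr and 875 in shDKK3 cells. Both were lowest on shDKK3, at -1.18 and -1.63. AKR1B10 was 0.28 with the background column subtracted. Metallothioneins, small metal-binding proteins, had 0 of 9 past 2-fold with a median of 0.18, whereas between shScr and parental their median was -1.18.

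Several genes with large differences belong to none of these groups. LYL1, a transcription factor of blood cells, gave 156 in parental, 168 in shScr and 583 in shDKK3 cells, and TRAPPC5, a vesicle tether, gave 533 in parental, 745 in shScr and 1776 in shDKK3 cells. AVPI1 gave 281 in parental, 354 in shScr and 907 in shDKK3 cells. These 3 were highest on shDKK3, by 1.60, 1.403 and 1.42 over parental, with 1.28 by the second probe of AVPI1. UBE2G1, a ubiquitin-conjugating enzyme, gave 96.5 in parental, 353 in shScr and 339 in shDKK3 cells, so it was about as high on both vector arrays. On the lower side LCP1, an actin bundler, gave 167 in parental, 17.8 in shScr and 9.90 in shDKK3 cells, low on both vector arrays. ANXA1, a phospholipid-binding protein of squamous cells, gave 6668 in parental, 6049 in shScr and 2302 in shDKK3 cells. GTF2F2, a subunit of TFIIF, gave 1220.0 in parental, 719.5 in shScr and 328 in shDKK3 cells. The differences of ANXA1 and GTF2F2 were -1.86 and -1.86, with -1.57 and -1.70 by their second probes. KTN1, an ER membrane protein, and BNIP2 stood at -1.72 and -1.69. LYL1, UBE2G1, ANXA1, GTF2F2 and BNIP2 were 0.56, 0.03, -0.26, -0.58 and -0.07 with the background column subtracted.

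The remaining 9 of the 51 lists had medians between -0.04 and 0.21, with at most 2 members higher and 2 lower each. Genes detected on 1 of the 2 arrays give only a bound. IGFL1, an insulin growth factor-like protein, was at least 2.33-fold higher on shDKK3, KRT1 at least 1.99-fold and SPP1, the matrix protein osteopontin, at least 1.42-fold. On the other side FGF5, a fibroblast growth factor, was at least 1.38-fold lower and XPNPEP3 at least 1.44-fold. The 2 genes past 2-fold that were detected on 1 array only were IGFL1 and KRT1, and their normalised differences of 1.26 and 1.004 entered the count of 129. IGFL1 was 0.04 with the background column subtracted. All 453 lower genes were above the blanks on both arrays. Of 3280 compared probes with no gene symbol, 9 were at least 2-fold higher (0.274%) and 38 lower (1.16%).

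Where a gene had more than 1 probe, the probe that did not represent it served as a further measurement on the same RNA. The other probe had to lie above the blanks on its brighter array, which held for 1773 genes. Of these, 108 were past 2-fold by the brightest probe. Dimmer probes were left out, among them those of AKR1C2 and CLDN1, at -0.02 each. In 103 of the 108 (95.4%) the other probe lay on the same side of 0, against 79.9% of the 1665 genes under 2-fold. Of 17 higher genes 16 kept their side and 5 were past 2-fold by both probes, and of 91 lower genes 87 and 43. The other probe gave smaller differences: the median was 0.88 against 1.11 by the brightest probe in the higher genes and -0.92 against -1.20 in the lower genes, where the brightest probe had been picked for level and the genes for passing 2-fold by it. The probes of CAV1, a caveolar coat protein, went opposite ways (-1.02 and 0.24), and those of TUBB3, a tubulin of neurons, and EIF2A, a translation factor, gave 1.24 and -0.02, and -1.33 and -0.17. CAV1 and TUBB3 were -0.81 and 0.15 by the brightest probe with the background column subtracted. After subtraction of the deposited background column the share on the same side was 57.4%.

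**Figure D4:**
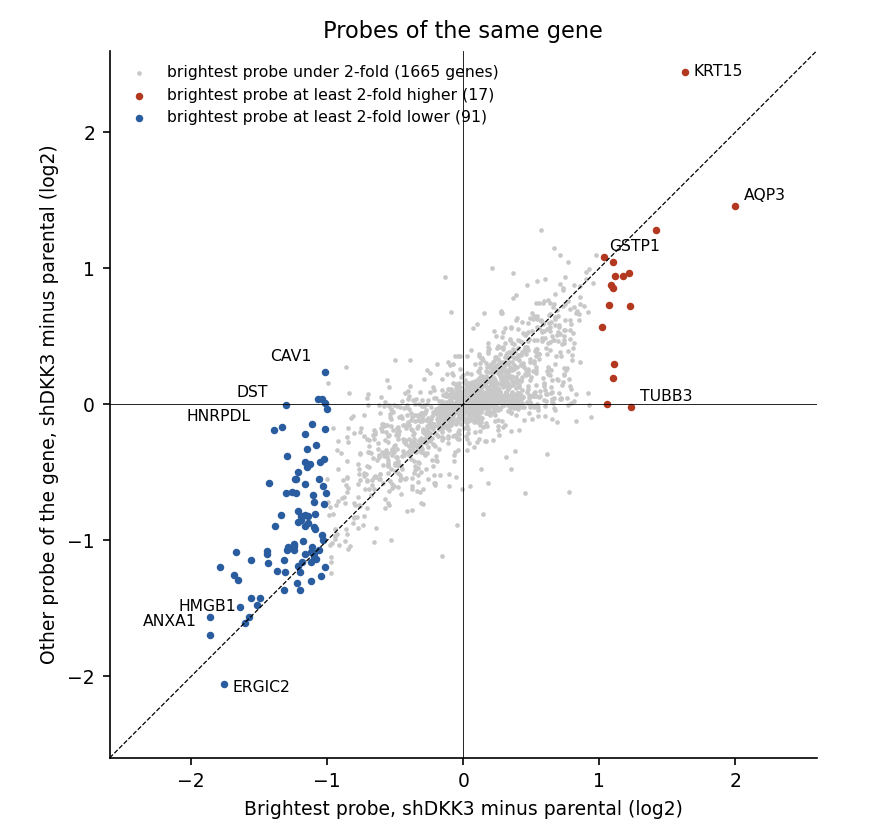
Each point is 1 of 1773 genes with a further probe above the blanks. The log2 difference of shDKK3 minus parental is by the brightest probe on the horizontal and by the other probe on the vertical axis. Of the 108 genes past 2-fold (coloured) 103 lie to the upper right or lower left of the point where both are 0, and the dashed line marks equal values.

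Gene length differed between the higher and the lower genes. The median genomic length of the RefSeq record was 6.65 kb for the higher, 42.4 kb for the lower and 26.01 kb for all compared genes. In 10 bins of length, the share of genes at least 2-fold higher was 2.28% in the shortest and 0.0672% in the longest, and the share lower was 1.14% in the shortest, at most 4.91% in the seventh and 2.55% in the longest. Bin medians went from 0.11 in the next shortest to -0.05 in the next longest bin, while those of shScr minus parental stayed between -0.01 and 0.01. With this trend removed by a running median, 88 genes were higher and 455 lower. Length and chromosome are linked. The share of genes at least 2-fold lower was 8.30% on chromosome 13, where the median length was 49.3 kb, and 0.186% on chromosome 19, where it was 14.2 kb and where 15 genes were higher. With the length trend removed, each described list whose median lay at least 0.2 from that of all genes kept its direction.

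**Figure D5:**
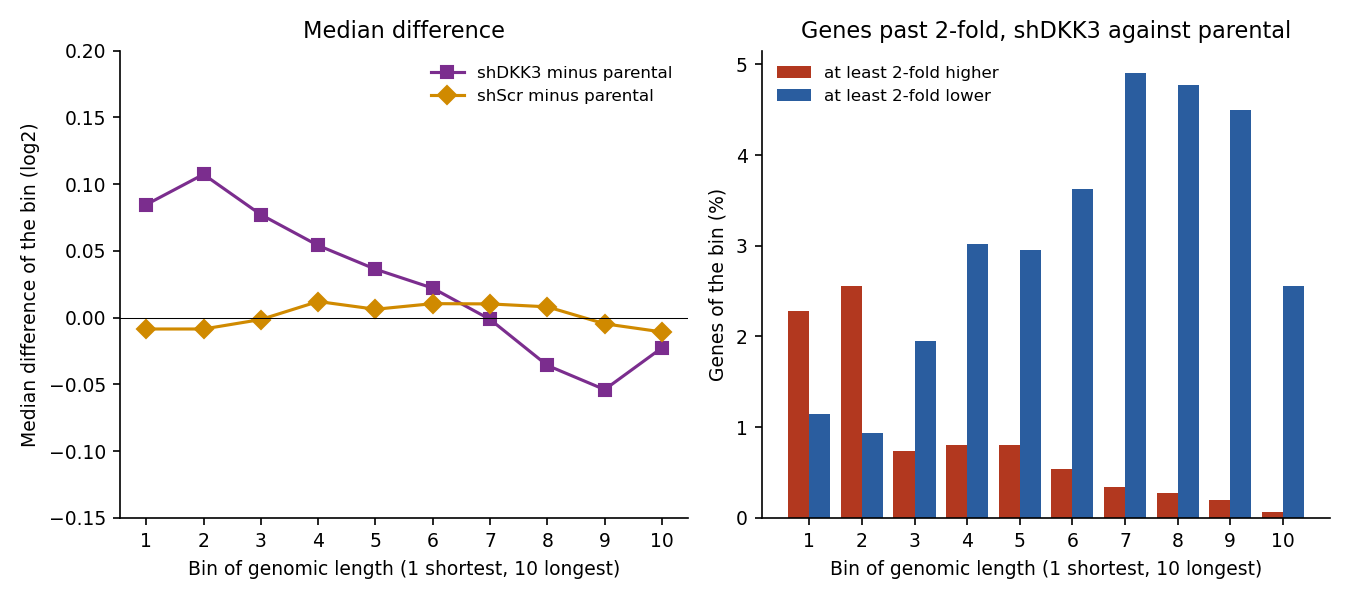
Compared genes are split into 10 bins by genomic length, shortest on the left. The left panel gives the median log2 difference of each bin for shDKK3 minus parental (squares) and shScr minus parental (diamonds), which lies between -0.01 and 0.01 for shScr, and the right panel the percent of each bin at least 2-fold higher or lower on the shDKK3 array, with the highest share, 4.91%, in bin 7.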

How the data were processed

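Per the labels' protocols, amino allyl RNA was made from total RNA, labelled with Cy5 and read in 1 colour. Per the file headers, the authors' deposited scanner intensity is the spot median at 635 nm, joined from scans at 3 gains. The authors' deposited table of intensity equals, from its values, the spot median minus a trimmed mean of the blank spots, divided by an array constant, with a median of 25. The scale is linear and uncentred, and the labels state no method for it.

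From the spot medians, normexp correction (limma 3.58.1, R 4.3.3, all spots, offset 50), log2 and quantile normalisation over the gene probes of the 3 arrays were computed here. Probes count as detected above the mean plus 2 SD of the blanks, 9 flagged probes were left out, and a gene is its brightest probe. The second deposited column, named as background, follows its own spot (r from 0.891 to 0.935) and serves as an alternative only. With 1 array a condition no test was made. Genes count at 2-fold or more, and the computation was tested on simulated data. The platform annotation gives 20236 probes a symbol and 4224 none. Of 17621 symbols, 14997 are current in RefSeq (GRCh38.p14), 2538 are a synonym and 86 have no match. Promoters come from RefSeq.

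The rule names DKK3, the 20 genes each way with the largest difference, 6 bounds each way, up to 4 members of each list each way, and 6 genes whose probes differ. The comparison, the gene lists and the rule were chosen with earlier results of these data known. Not all genes the rule allows are described. The alternatives were other background corrections, scalings, filters, thresholds and probe rules, the authors' table and removal of the length trend.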

Additional observations from a re-analysis of the deposited data

How the results depend on the processing

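The 129 genes at least 2-fold higher became 700 with plain subtraction of the blank mean, 246 with an offset of 16, 210 after subtraction of the deposited background column, 64 and 199 with each array's median or 75th percentile as the scale and 672 in the authors' table. Thresholds of 1.5-fold and 3-fold gave 1023 and 13. The 453 lower genes became 1631, 781 and 252 under those 3 background settings, 715 with scaling to the median, 1615 in the authors' table, and 1399 and 37 at the 2 thresholds. The median of all genes was 0.03, and 0.26, 0.13 and 0.11 with scaling to the 75th percentile, subtraction of the blank mean and the authors' table. DKK3 stood at -0.71, and at -0.95 with scaling to the median, -0.86 in the authors' table and 0.23 with the background column subtracted. The share of other probes on the same side, 95.4%, was then 57.4%. That column also turned CDC2 (0.17), PTX3 (0.0903), DUSP6 (0.93), F3 (4.49), CXCL1 (0.0875), CCND2 (0.16), HMGB2 (0.0122), HSP90B1 (0.10), MVK (-0.14), FASN (-0.28) and, relative to all genes, the medians of heat shock proteins (0.0002) and ribosome biogenesis (0.0815). It left 47 of 118 described genes past 2-fold the same way, against 106 to 119 in the other settings, and 2 of 19 lists at least 0.2 from all genes, against 16 to 19. SPRR1B was then 0.17, S100A8 0.08, INHBA -0.03, NUF2 -0.08 and UBE2G1 0.03, and relative to all genes the stress keratins went from 0.91 to 0.11 and mitotic genes from -0.80 to -0.14. No other described gene past 2-fold, and no other described list at least 0.2 from all genes, changed direction under the 13 settings. Lists closer to 0 did: NRF2 targets kept their sign in 8 of 13 settings and proteasome genes in 9. The cause was not tested. No paired analysis was possible because each condition has 1 array. The offset of 50 shrinks the differences of dim genes, and with it 0 of 4988 genes of the dimmest tertile reached 2-fold.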
